A study of Mus musculus with 9 samples.

Results

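RAW264.7 is a mouse macrophage line, and 2 ways of lowering NFAT5 activity in it were pooled here and set against untreated cells. The pooled group held 6 of the 9 samples of the series. In 3 of them a stable short hairpin RNA (shNFAT5) was directed at the Nfat5 transcript, and the other 3 were transfected with NFAT5-decoy oligonucleotides, which carry the consensus that NFAT5 binds in its target genes. The 3 control samples were RAW264.7 cells without treatment, and all cells were grown in alpha-MEM with serum and antibiotics. With no control hairpin and no control oligonucleotide among the samples used here, effects of transfection and of long culture cannot be told apart from effects of NFAT5. The labels do not say whether samples of a group were separate cultures, or whether the knock-down line was 1 clone. The p-values therefore reflect how far these samples varied among themselves, and that variation may be technical.

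Each sample's total RNA was read on its own Illumina bead array of the mouse genome. A probe was counted as separated where all 6 treated arrays lay above, or all 6 below, all 3 control arrays. A gene was counted where every probe with signal, meaning above the background limit on at least 3 arrays, was separated in the same direction. Of 8428 genes with signal, 3102 had at least 2 such probes, and 447 of these met the rule. The other 5326 genes had 1 such probe, and 2954 of them were separated with no second probe to compare. The narrowest separations that counted were those of Sart3 and Mrps33, with gaps of 0.00095 and 0.0018 in log2, and Marchf6 and Ss18 just missed with a gap of 0.

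NFAT5, also called TonEBP, is the member of the NFAT family that does not need calcineurin. It binds DNA at tonicity-responsive enhancers, which share the core TGGAAA, and in kidney and other tissues under high salt it induces transporters and enzymes that accumulate compatible osmolytes. In macrophages it is known for a second role at inflammatory genes, where it acts after Toll-like receptor stimulation together with NF-kB. The cells measured here were in ordinary medium, with no osmotic or Toll-like receptor stimulus in the labels.

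The treated arrays were dimmer than the control arrays in their bright range and not in their median. Between 21.5% and 27.1% of probes were above background on treated arrays, against 34.1% to 34.9% on control arrays, and 7 to 52 probes against 128 to 140 were at the scanner's upper limit. The upper quartile of raw signal was 209 to 257 units on treated and 319 to 336 on control arrays, and the median was 156 to 187 units on treated and 150 to 158 on control arrays. Principal component 1 took 65% of the variance and set all treated arrays apart from all controls. The median SD of a probe was 0.223 in the knock-down, 0.186 in the decoy and 0.0906 in the control group. With whole-culture RNA, fewer cells expressing a gene and less RNA per cell cannot be told apart. The part of overall brightness in the results below was not tested. The counts over all genes are given under 3 ways of scaling the arrays, and a list count given with no scaling named is with quantile normalization.

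In the linear model of 6 treated against 3 control arrays, 5559 of 27062 probes were called higher (20.5%) and 6043 lower (22.3%) at a Benjamini-Hochberg adjusted p below 0.05 (limma). With quantile normalization, 1492 of the 8428 genes were separated higher (17.7%) and 1909 lower (22.7%). Among genes with at least 2 probes, 197 were separated higher (6.35%) and 250 lower (8.06%). Among genes with 1 probe, 1295 were separated higher (24.3%) and 1659 lower (31.1%). At least 2-fold on every probe were 24 of the 197 and 25 of the 250.

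Probes of the same gene often disagreed. Of the 833 genes in which every one of several probes was separated, the probes pointed the same way in 447, or 53.7%. For genes with exactly 2 probes, both separated, 379 had probes that agreed and 279 had probes that were opposed. In all, 609 of the 3102 genes had some probes separated in opposite directions. With 53.7% agreeing, near an even split, agreement of probes alone says little for a single gene. Genes separated on 1 probe had no second probe to compare, and genes with several agreeing probes are named first in what follows.

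The scaling moved the counts further. When each array was scaled to a common median over all probes, the median difference of the 8428 genes moved to -0.85 in log2, against 0.02 with quantile normalization. Then 129 genes were separated higher and 5410 lower. When arrays were scaled to a common median over probes with signal, the median was 0.25, with 2361 genes higher and 1100 lower. Separated in the same direction under all 3 scalings were 128 genes higher (1.52%) and 1081 lower (12.8%). These are called held below, and 5 of the 128 and 115 of the 1081 had at least 2 probes. Every fall with quantile normalization stayed separated under scaling to the median of all probes. Held falls are therefore those that also stayed separated under scaling to the median of probes with signal. Under the latter, 193 of 197 rises on several probes and 1265 of 1295 on 1 probe stayed separated. For rises, held thus rests almost wholly on scaling to the median of all probes. A gene separated with quantile normalization whose arrays overlapped, or changed side, under another scaling is called scaling-dependent. Among the rises 335 were separated in the opposite direction under scaling to the median of all probes, and among the falls 65 were under scaling to the median of probes with signal. A gene could enter through the arrays of 1 group alone, such as the 3 controls. Of the falls with quantile normalization, 19 on several probes and 540 on 1 probe were above background in 1 group only, against 1 and 47 of the rises. Over the 6032 genes with probes above background on all 9 arrays, 1684 were separated higher (27.9%) and 1040 lower (17.2%). Under all 3 scalings these were 79 higher (1.31%) and 924 lower (15.3%). Above background in 1 group only were 44 of the 128 held rises and 49 of the 1081 held falls.

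**Figure D1:**
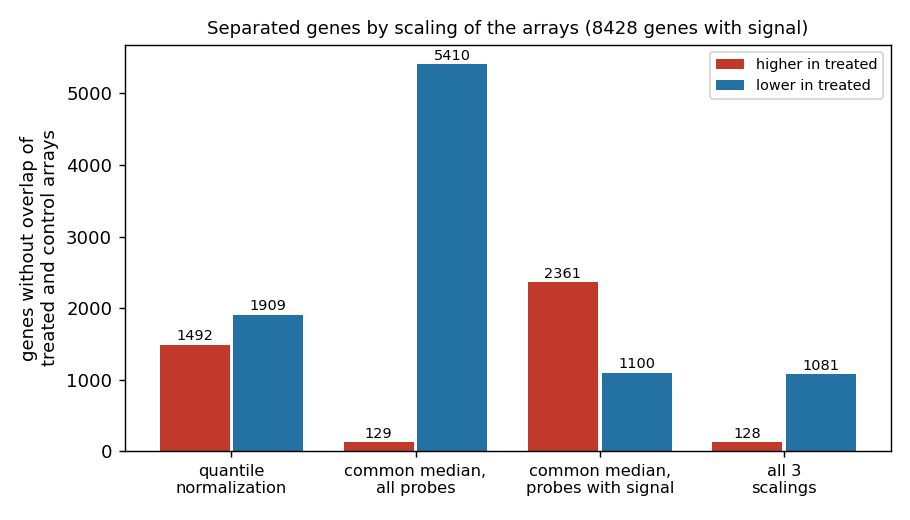
Number of the 8428 genes with signal (y axis, genes) whose 6 treated arrays lay above or below all 3 control arrays with every probe in agreement, under each scaling of the arrays and under all 3 together. The rises shrink to 129 under scaling to the median of all probes and the falls shrink to 1100 under scaling to the median of probes with signal, which leaves 128 held rises and 1081 held falls.

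In raw units, with no scaling at all, 118 of the 128 held rises were separated higher. Over all 8428 genes, 136 were higher and 5309 lower in raw units. All 14 interferon-stimulated genes among the held rises were higher in raw units too. Raw medians were 156 to 187 units on treated and 150 to 158 on control arrays. Raw units are therefore close to scaling to the median of all probes, under which the held rises were chosen, and are no separate check.

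Nfat5 itself did not meet the rule, because its 2 probes disagreed. The brighter probe read 10.38, 10.50 and 10.43 in knock-down and 11.07, 10.90 and 10.97 in decoy cells, against 11.58, 11.36 and 11.46 in control cells (log2). It was lower in both lines, with differences of -1.03 in knock-down and -0.49 in decoy cells (log2). The dimmer probe read 9.09, 9.28 and 9.36 on the treated arrays, against 8.73, 8.55 and 8.45 on the controls, a difference of 0.69 that turned to -0.39 under scaling to the median of all probes. In raw units the dimmer probe had 390 to 640 on treated and 625 to 752 on control arrays. Here and below, the 3 values given for treated arrays are the lowest, the median and the highest of 6 in log2, and those for controls are the 3 arrays. The part of the transcript that each probe reads is not stated in the sources used here.

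Among genes with several agreeing probes, ranked by the probe that moved least, the largest rise was that of Usp18, the protease that removes ISG15 from proteins and damps type I interferon receptor signalling. Its brighter probe read 11.85, 12.10 and 12.28 on the treated arrays, against 9.84, 9.62 and 9.90 on the controls, and its other probe 10.40, 10.68 and 10.97 on the treated arrays, against 7.70, 7.61 and 7.42 on the controls. The groups lay far apart on both probes, with differences of 2.29 (SE 0.139, adjusted p = 3.58e-08) and 3.10 (SE 0.157, adjusted p = 8.16e-09), which is 4.89-fold and 8.56-fold, and the rise held under all 3 scalings. Dhx58, which encodes LGP2, a relative of the RNA sensor RIG-I, had 3 agreeing probes. They differed by 1.59, 1.39 and 1.16 in log2, and the brightest read 8.77, 9.30 and 9.64 on the treated arrays, against 7.52, 7.86 and 7.58 on the controls. Ddx10, a nucleolar RNA helicase, rose by 1.64 on its brighter probe, which read 8.71, 8.94 and 9.04 on the treated arrays, against 7.29, 7.32 and 7.20 on the controls. Its other probe was not well above background on any control array and was at least 1.78-fold higher. Slc1a5, the main glutamine transporter ASCT2, was below background in all controls, and its probes rose at least 2.01-fold and at least 1.79-fold. Its treated arrays spread widely, at 7.13, 8.00 and 9.02 on the brighter probe. Usp18, Dhx58, Ddx10 and Slc1a5 held under all 3 scalings, as did Ing3, a subunit of the NuA4 acetyltransferase complex, named after its values were seen, at 1.59 and 1.13.

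The other large rises on several probes were scaling-dependent, since at least 1 probe of each overlapped under scaling to the median of all probes. Eef2, the factor that moves the ribosome along the mRNA, had 3 probes at 2.11, 1.59 and 1.67, and the brightest read 11.53, 12.10 and 13.23 on the treated arrays, against 10.23, 10.03 and 10.20 on the controls. Cemip2, a cell-surface hyaluronidase, differed by 1.30 and 1.82. Khdrbs1, the RNA-binding protein Sam68, read 11.70, 11.97 and 12.09 on the treated arrays, against 10.31, 10.27 and 10.20 on the controls on its brighter probe, a difference of 1.67 (SE 0.132, adjusted p = 3.57e-07). Every one of its treated arrays was more than a log2 unit above every control. Msn, which encodes moesin, a link between the actin cortex and the membrane, differed by 1.72 and 1.16. Galnt1, an enzyme that starts O-linked glycosylation, had 4 agreeing probes between 1.16 and 1.58. Net1, an exchange factor for RhoA, differed by 1.19 and 1.65. Gatc, part of the amidotransferase that makes mitochondrial glutaminyl-tRNA, differed by 1.20 and 1.19, and Gemin6, of the SMN complex that assembles snRNPs, by 1.17 and 1.22.

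**Figure D2:**
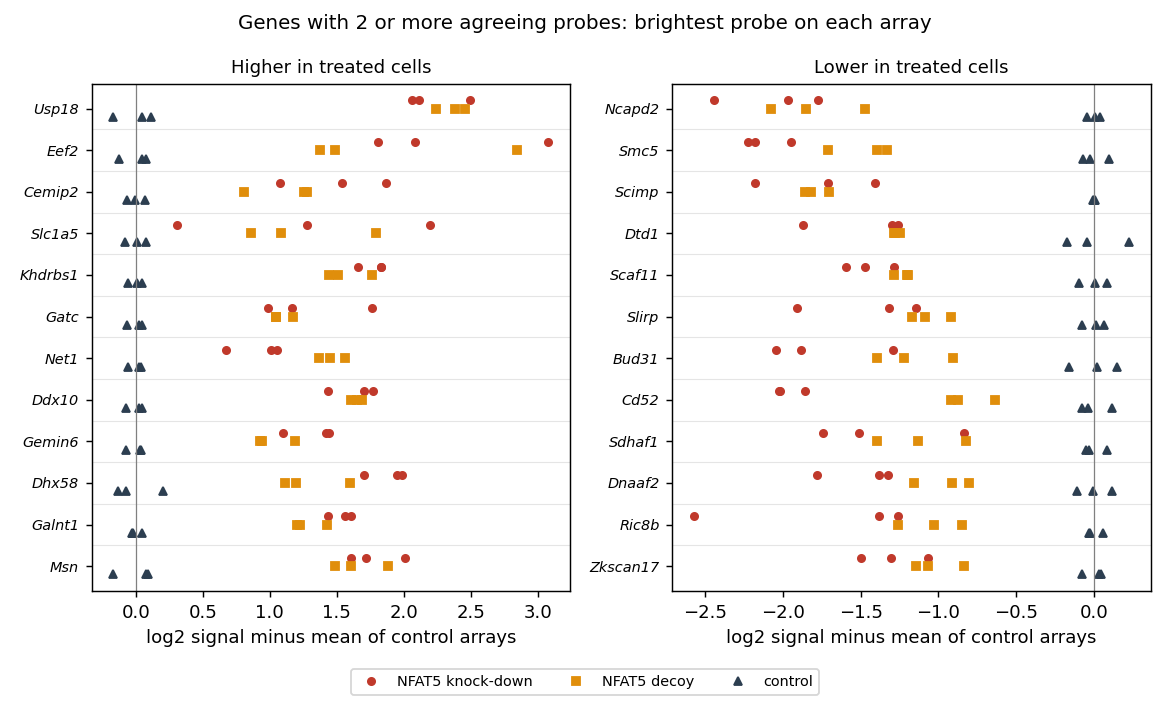
Log2 signal minus the mean of the control arrays (x axis) on each array for the 12 largest rises and 12 largest falls among genes with at least 2 agreeing probes, by the brightest probe, with knock-down as circles, decoy as squares and control as triangles. No treated point overlaps a control point, and of the 12 rises only Usp18, Slc1a5, Ddx10 and Dhx58 remain separated under all 3 scalings, while all 12 falls do.

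The largest fall on several probes was that of Ncapd2, a subunit of condensin I, which compacts mitotic chromosomes. Its 2 brighter probes differed by -1.93 and -1.78 in log2, and the third, not well above background on any treated array, was at least 1.79-fold lower. The brightest read 9.36, 9.89 and 10.33 on the treated arrays, against 11.84, 11.76 and 11.81 on the controls. Smc5, of the SMC5/6 complex for DNA repair, read 7.97, 8.37 and 8.86 on the treated arrays, against 10.29, 10.12 and 10.17 on the controls on its brighter probe and differed by -1.79 (SE 0.191, adjusted p = 5.56e-06) and -1.58 (SE 0.168, adjusted p = 5.56e-06). Its partner Smc6 differed by -0.55 and -0.40. All probes of the SMC5/6 pair thus pointed down, more in Smc5 than in Smc6. Scimp, a transmembrane adaptor of immune cells that joins Toll-like receptors to Src kinases, was lost into the background on treated arrays, so its fall is given as at least 1.81-fold. Cd52, a small glycoprotein of leukocyte surfaces, read 10.05, 10.69 and 11.44 on the treated arrays, against 12.04, 12.19 and 12 on the controls, a difference of -1.39 (SE 0.281, adjusted p = 0.0011). All of these falls held under all 3 scalings.

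The other named falls on several probes held too. Scaf11, a splicing factor, differed by -1.34 and -2.26. Bud31, of the spliceosome, differed by -1.46 and -1.25. Dtd1, which removes D-amino acids from tRNA, read 8.33, 8.92 and 8.95 on the treated arrays, against 10.02, 10.15 and 10.42 on the controls on its brighter probe. Slirp, which keeps mitochondrial mRNAs stable, read 11.06, 11.81 and 12.05 on the treated arrays, against 12.89, 12.98 and 13.03 on the controls on its brighter probe and 9.00, 9.43 and 9.88 on the treated arrays, against 11.31, 11.42 and 11.52 on the controls on its other probe. Both Slirp probes were clear of the controls, with differences of -1.26 and -1.98. Sdhaf1, an assembly factor of respiratory complex II, differed by -1.24 and -1.41. Dnaaf2, which helps assemble dynein arms, differed by -1.23 and -1.45, the G-alpha chaperone Ric8b by -1.39 and -1.17, and the zinc finger gene Zkscan17 by -1.15 and -1.54.

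Larger changes were found among genes with 1 probe with signal. Zc3h13, a subunit of the m6A methyltransferase complex, was below background in all controls and was at least 6.69-fold higher in treated cells, at 9.22, 9.78 and 10.34 on the treated arrays, against 6.88, 6.80 and 6.89 on the controls. Scn11a, a sodium channel gene best known from sensory neurons, differed by 2.79 (SE 0.556, adjusted p = 0.000972), with a wide spread that followed the 2 lines. Srek1, a splicing regulator, read 9.51, 9.76 and 10.02 on the treated arrays, against 7.15, 7.20 and 7.30 on the controls, and Ddx5, an RNA helicase and coactivator, read 9.07, 9.49 and 10.60 on the treated arrays, against 7.23, 7.22 and 7.47 on the controls. Their differences were 2.52 and 2.42. The annotated pseudogene Smarca5-ps differed by 2.41, and whether its probe also reads Smarca5 was not tested. Smarca5 itself, named after its values were seen, was lower, at -0.62, and scaling-dependent. Zc3h13, Scn11a, Srek1, Ddx5 and Smarca5-ps held under all 3 scalings. The largest fall with 1 probe was that of Bcl2a1b, an anti-apoptotic member of the BCL2 family, followed by S100a4, Mdh2 and 3 genes of the mitochondrial genome, all described with their groups below.

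Interferon-stimulated genes are switched on by type I and type II interferons through the STAT transcription factors and IRF9, and many encode antiviral effectors. Among the lists with more than 1 member with signal, they had the highest share of held rises. Of 42 listed genes with signal, 23 were separated higher and 2 lower, and 14 higher and 2 lower under all 3 scalings. That is 33.3% held rises and 4.76% held falls, beside 1.52% and 12.8% of all genes with signal. The list's median difference was 0.65, beside 0.02 for all genes. Under scaling to the median of all probes 14 members were higher and 11 lower, with a median of -0.10 beside -0.85. Over the 30 members with signal on all 9 arrays, 12 rises (40%) and 3 falls (10%) held, beside 1.31% and 15.3% of all such genes. Without knock-down replicate 3, the dimmest knock-down array, 25 members were separated higher and 2 lower, and without decoy replicate 3 the counts were 23 and 3.

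Rsad2, which encodes the antiviral enzyme viperin, read 8.77, 9.10 and 9.38 on the treated arrays, against 7.15, 6.98 and 7.13 on the controls. Isg15, the ubiquitin-like modifier that USP18 removes, read 9.04, 9.41 and 9.59 on the treated arrays, against 7.87, 7.54 and 7.64 on the controls. Ifit3, of the family that binds viral RNA, read 8.73, 8.90 and 9.20 on the treated arrays, against 7.33, 7.27 and 7.37 on the controls. Each of these genes lay clear of the controls on all 6 treated arrays, with fold changes of 4.04, 3.25 and 3.1. Ifi207, a DNA-sensor relative of the HIN-200 family, read 10.78, 11.22 and 11.52 on the treated arrays, against 8.62, 8.59 and 8.49 on the controls, the largest rise of the list by the brightest probe. Eif2ak2, the double-stranded RNA kinase PKR, read 11.55, 11.73 and 12.43 on the treated arrays, against 10.10, 9.95 and 10.15 on the controls, a difference of 1.79 (SE 0.172, adjusted p = 2.07e-06). The interferon-induced GTPases Igtp and Irgm2 differed by 1.82 and 1.5. The oligoadenylate synthetase genes Oas2 and Oasl2 differed by 1.55 and 1.34, and Oasl2 was below background in the controls (at least 2.41-fold). Parp14, a mono-ADP-ribosyltransferase, differed by 1.89 and Ddx58, which encodes RIG-I, by 0.95. Gbp3, a guanylate-binding protein gene, was not well above background in the controls and was at least 1.74-fold higher. All genes of this paragraph held under all 3 scalings, and Rsad2, Isg15, Ifit3, Igtp, Irgm2, Oas2, Oasl2, Parp14, Gbp3 and Ddx58 were named after their values were seen.

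**Figure D3:**
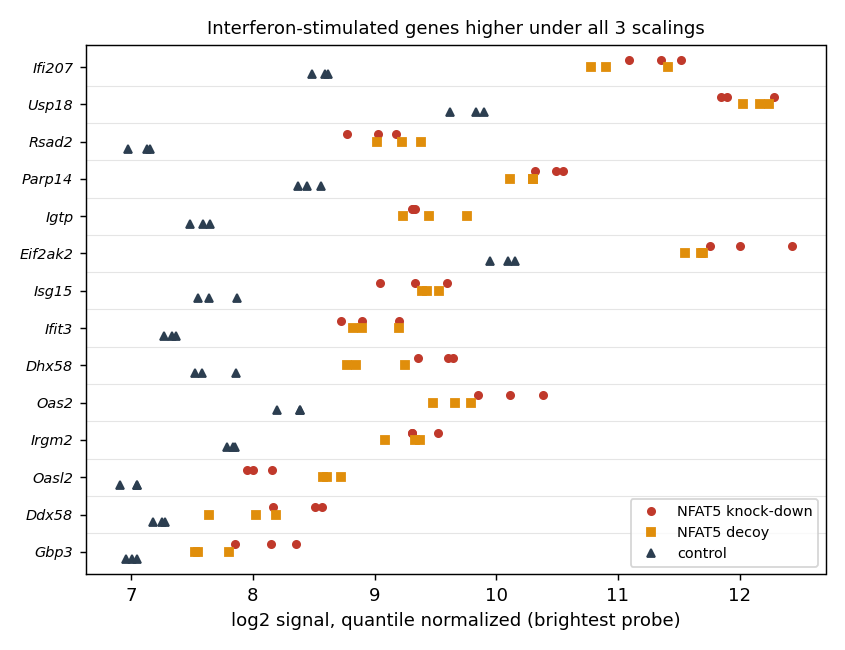
Log2 signal (x axis, quantile normalized, brightest probe) on each array for the 14 interferon-stimulated genes that were higher under all 3 scalings, with knock-down as circles, decoy as squares and control as triangles. Every treated point lies to the right of the control points of its gene, and for Usp18, Rsad2, Isg15 and Ifit3 both treated lines overlap each other.

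The regulators of the response were more mixed. Irf7, named after its values were seen, read 9.00, 9.51 and 9.69 on the treated arrays, against 7.56, 8.10 and 7.92 on the controls, a scaling-dependent difference of 1.56. Irf9, the DNA-binding subunit of the interferon-activated complex, differed by 0.90 and 1.90 on its 2 probes, and its brighter probe turned to -0.24 under scaling to the median of all probes. Irf8, a lineage factor of macrophages that was counted with the macrophage genes, went the other way, at 7.95, 8.11 and 8.39 on the treated arrays, against 9.96, 10.20 and 10.09 on the controls, a held fall with a difference of -1.95 (SE 0.13, adjusted p = 8.67e-08). The 2 members of the interferon list that fell were Ifi27, at -0.78 and -1.18, and Ifi27l2a, named after its values were seen, at -1.16, which are related genes of 1 family. Both falls held under all 3 scalings. Irgm1, another interferon-induced GTPase, had probes in opposite directions. Its brighter probe read 13.26, 13.44 and 13.59 on the treated arrays, against 14.72, 14.86 and 14.61 on the controls, and the dimmer one 9.84, 10.18 and 10.53 on the treated arrays, against 8.77, 8.74 and 8.69 on the controls. The 2 probes differed by -1.29 and 1.46, so no direction can be given for this gene. Ube2l6, the conjugating enzyme for ISG15, had 2 agreeing probes at 1.85 and 0.67 and was scaling-dependent.

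The interferon-stimulated response element, which IRF9-containing and IRF complexes bind, was searched in the promoters as GAAANNGAAA on both strands within 250 bases before each annotated start (RefSeq, GRCm38.p6). Of 6924 genes with signal and a promoter in the table, 223 held it (3.2%), as did 978 of all 32851 (3.0%). Among the held rises it was in 17 of 101 (16.8%), and outside the interferon list in 10 of 91 (11%). These 10 include Cxcl10, an interferon-induced chemokine, so the list does not hold every interferon-induced gene. It was in 5 of 156 rises on several probes (3.2%), 61 of 1087 rises on 1 probe (5.6%), 9 of 203 falls on several probes (4.4%) and 37 of 1359 falls on 1 probe (2.7%). In the interferon list it was in 9 of 19 members separated higher (47.4%) and in 4 of 13 other members with signal (30.8%). A match is a description of the letters and not a site of binding. The stretches of 4 held rises are shown because the motif and its spacing can be read in them, with the matching letters in capitals and the sequence on the gene's strand, 5′ to 3′. They are at chr12:26456533-26456602, minus strand (Rsad2), chr4:156200845-156200926, minus strand (Isg15), chr19:34583343-34583446, plus strand (Ifit3) and chr1:173741811-173741880, minus strand (Ifi207).
Rsad2: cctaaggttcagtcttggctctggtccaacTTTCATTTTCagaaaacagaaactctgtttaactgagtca
Isg15: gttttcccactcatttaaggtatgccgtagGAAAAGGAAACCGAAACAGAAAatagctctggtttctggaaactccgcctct
Ifit3: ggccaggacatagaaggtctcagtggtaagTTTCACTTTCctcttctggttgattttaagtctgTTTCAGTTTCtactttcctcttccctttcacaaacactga
Ifi207: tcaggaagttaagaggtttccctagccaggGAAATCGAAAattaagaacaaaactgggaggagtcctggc
In Isg15 3 overlapping matches run together, Ifit3 has 2 separate ones on the other strand, and Rsad2 and Ifi207 have 1 each.

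Of 15 cytokine and effector genes with signal, 8 were separated higher and 1 lower, and of 10 chemokine genes 3 and 1. The rises are 53.3% and 30% of the lists, beside 17.7% of all genes. Under all 3 scalings 1 cytokine gene was higher, Il15, 1 was lower, Pdgfa, and 1 chemokine gene was higher, Cxcl10. These held rises are 6.67% and 10% of the lists, beside 1.52% of all genes. Cxcl10, the interferon-induced chemokine, read 7.95, 8.24 and 8.81 on the treated arrays, against 7.14, 7.07 and 7.10 on the controls, a difference of 1.25 (SE 0.172, adjusted p = 4.9e-05). Pdgfa, a growth factor subunit, read 8.95, 9.91 and 10.59 on the treated arrays, against 11.28, 11.33 and 11.29 on the controls. Il15, a growth factor of NK and memory T cells, named after its values were seen, differed by 1.12. Il1rn, the interleukin-1 receptor antagonist, was scaling-dependent and differed by 1.43 and 0.62. Vegfa, with 2 probes at 0.69 and 0.97, and Tnfsf13b (BAFF), with 3 probes at 0.60, 0.55 and 0.43, turned to -0.36 and -0.49 on the brightest probe under scaling to the median of all probes. Cxcl2, a neutrophil attractant, differed by 1.16, scaling-dependent. Ccl2, a monocyte attractant, was separated lower but not well above background on any treated array, so no fold is given, and it was scaling-dependent. Tnf, with 2 probes, was not called, at 0.20 and -0.33 (adjusted p = 0.398 and 0.342), and Ccl5 was at 0.17 (adjusted p = 0.43). Tnf and Ccl5 were named after their values were seen, because both are known NFAT5 targets.

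Counts for the receptors and kinases upstream of NF-kB depended on the scaling. With quantile normalization, of 18 Toll-like receptor and adaptor genes 2 were separated higher and 3 lower, and of 21 NF-kB genes 2 and 1. These are 11.1% and 16.7% of the first list and 9.52% and 4.76% of the second, beside 17.7% and 22.7% of all genes. Under scaling to the median of all probes the Toll-like receptor list had 0 higher and 11 lower and the NF-kB list 0 and 17, and under scaling to the median of probes with signal they had 5 and 1, and 10 and 1. No rise of either list held, and 1 fall of each did (5.56% and 4.76%, beside 12.8% of all genes). The lack of held rises says little for lists of this length, since held rises were 1.52% of all genes. Tlr4, the lipopolysaccharide receptor, differed by 0.60 and 0.86, and Tab2, an adaptor of the kinase TAK1, by 0.84, but their brightest probes turned to -0.53 and -0.24 under scaling to the median of all probes. Irak1, a kinase of the Toll-like receptor complex, had 3 agreeing probes at -0.47, -1.53 and -0.46 and was scaling-dependent. Naip2 and Naip5, related cytosolic sensors of bacterial proteins, pointed in different directions, at -1.26 (held) and 0.67 (turning to -0.06 under scaling to the median of all probes). Antigen presentation gave 4 higher and 2 lower of 27 (14.8% and 7.41%), with 0 held rises and 1 held fall (3.7%). Ctss, the protease that trims the invariant chain, was that fall, at 8.06, 8.45 and 9.05 on the treated arrays, against 10.05, 10.22 and 10.21 on the controls. Calr and Tapbp, both of the peptide-loading complex, differed by 1.66 and, on the brighter Tapbp probe, 0.89, which turned to -0.01 under scaling to the median of all probes. The Calr difference was scaling-dependent too.

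Known NFAT5 targets were listed in groups of osmoprotective and inflammatory genes. Of 9 osmoprotective targets with signal, 2 were separated higher and 3 lower (22.2% and 33.3%, beside 17.7% and 22.7% of all genes). With all 3 scalings 1 was higher and 3 lower. These held shares are 11.1% and 33.3% of a short list, beside 1.52% and 12.8% of all genes. S100a4, a calcium-binding protein, read 10.02, 10.34 and 10.74 on the treated arrays, against 12.80, 12.77 and 12.93 on the controls, a held fall of 5.47-fold. Akr1b8, an aldo-keto reductase related to aldose reductase, read 10.30, 11.55 and 11.64 on the treated arrays, against 12.32, 12.27 and 12.40 on the controls, a held difference of -1.12 (SE 0.258, adjusted p = 0.00276). Pnpla6, the neuropathy target esterase that makes the osmolyte glycerophosphocholine, had 2 held probes at -0.60 and -0.86. Sgk1, a salt-responsive kinase, went the other way and held, at 10.28, 11.06 and 11.32 on the treated arrays, against 9.07, 9.11 and 9.18 on the controls. Slc6a12, the betaine transporter, was scaling-dependent at 0.96, and the taurine transporter Slc6a6 was at -0.05 and 0.19 (adjusted p = 0.833 and 0.337). Both transporters were named after their values were seen. Of 9 inflammatory targets 4 were separated higher and 3 lower (44.4% and 33.3%). With all 3 scalings 1 was higher, Cxcl10, and 2 were lower (11.1% and 22.2%, beside 1.52% and 12.8% of all genes). Hmox1, haem oxygenase, named after its values were seen, was a held fall at -0.77.

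The calcineurin branch, which drives the other NFAT proteins, gave 3 higher and 2 lower of 15 (20% and 13.3%, beside 17.7% and 22.7% of all genes), with 0 held rises and 1 held fall. Rcan1, an inhibitor of calcineurin that is itself an NFAT target, read 8.50, 8.82 and 9.60 on the treated arrays, against 7.41, 7.14 and 7.09 on the controls on its dimmer probe and 11.12, 11.57 and 11.74 on the treated arrays, against 11.06, 11.10 and 11 on the controls on its brighter one. Both were separated with quantile normalization, at 1.77 and 0.45, but the brighter turned to -0.60 under scaling to the median of all probes. Ppp3ca, a catalytic subunit of calcineurin, named after its values were seen, had probes of opposite sign, at 0.42 and -0.82.

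The promoters were also searched for the NFAT core TGGAAA and for the longer tonicity-responsive enhancer consensus, which contains it, on both strands. The core was in 1201 of 6924 genes with signal (17.3%). It was in 36 of 156 rises on several probes (23.1%), 38 of 203 falls on several probes (18.7%) and 28 of 101 held rises (27.7%), and in 192 of 1087 rises and 241 of 1359 falls on 1 probe (17.7% each). The longer consensus was in 275 of the 6924 (4.0%), in 7 of the 156 (4.5%), 8 of the 203 (3.9%) and 3 of the 101 (3.0%), and on 1 probe in 43 of the 1087 rises (4.0%) and 47 of the 1359 falls (3.5%). The shares of the longer consensus were thus close to that of all genes with signal in each set. Its sequence context is shown for 2 genes that fell and 2 that were higher on several probes, with the consensus in capitals on the gene's strand, 5′ to 3′ (RefSeq, GRCm38.p6). They are at chr17:24724534-24724604, minus strand (Ndufb10), chr8:3515438-3515508, plus strand (Pnpla6), chr13:83503794-83503864, plus strand (Mef2c) and chrX:159942521-159942591, plus strand (Sh3kbp1).
Ndufb10: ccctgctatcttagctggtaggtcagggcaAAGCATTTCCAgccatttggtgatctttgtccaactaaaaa
Pnpla6: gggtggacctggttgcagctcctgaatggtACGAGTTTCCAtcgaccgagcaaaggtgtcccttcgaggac
Mef2c: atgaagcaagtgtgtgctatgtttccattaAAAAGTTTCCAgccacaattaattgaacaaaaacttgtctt
Sh3kbp1: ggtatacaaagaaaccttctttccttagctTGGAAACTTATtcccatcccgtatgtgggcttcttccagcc
Mef2c, a transcription factor of muscle and myeloid cells, differed by 0.99, 0.49 and 1.47 on 3 probes. Sh3kbp1, an adaptor of receptor endocytosis, differed by 1.34, 1.34 and 0.74. Both were scaling-dependent and named after their values were seen. Ndufb10 is described with the mitochondrial genes.

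The mitochondrial genome encodes core subunits of the respiratory chain, and 6 of its genes had probes with signal. None was separated higher and 5 were separated lower, 4 of them under all 3 scalings (66.7%, beside 12.8% of all genes). Over the 5 with signal on all 9 arrays, 4 falls held. COX2, a subunit of cytochrome c oxidase, read 9.40, 10.09 and 10.79 on the treated arrays, against 12.93, 12.91 and 13.44 on the controls. ATP6, of the ATP synthase, read 10.70, 11.19 and 11.86 on the treated arrays, against 13.76, 13.80 and 14.02 on the controls. ND1, of complex I, read 11.26, 12.09 and 12.74 on the treated arrays, against 14.35, 14.41 and 14.70 on the controls. The treated arrays of these genes were all more than a log2 unit below the controls, with differences of -2.98 (SE 0.266, adjusted p = 1.08e-06), -2.58 (SE 0.228, adjusted p = 1.04e-06) and -2.47 (SE 0.289, adjusted p = 1.17e-05). ND4 differed by -1.12 and held. CYTB, whose controls were at the scanner's limit, was at least 1.7-fold lower and scaling-dependent, and ND5 was at -0.05 (adjusted p = 0.875). CYTB and ND5 were named after their values were seen. The list's median difference was -1.79, beside 0.02 for all genes.

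Factors that maintain and read the mitochondrial genome were not counted as a list. Slirp, shown above, and Tfam, both lower on several probes, are therefore single examples. Tfam, which packages mitochondrial DNA and starts its transcription, was named after its values were seen. Its brighter probe read 9.31, 10.13 and 10.38 on the treated arrays, against 11, 11.07 and 10.99 on the controls, and its probes differed by -1.03 and -1.16, both held. Of 73 mitochondrial ribosomal protein genes 15 were separated higher and 21 lower. No rise held, and 16 falls did (21.9%, beside 12.8% of all genes). Mrpl16 was a held fall, at 8.46, 8.95 and 9.87 on the treated arrays, against 11.01, 10.80 and 10.85 on the controls. Mrpl13 had 2 held probes at -0.78 and -0.71. Mrps26 had 2 probes at -0.94 and -0.92, scaling-dependent. Mrps31, with 3 agreeing probes at 0.49, 1.00 and 0.96, was scaling-dependent, and its brightest probe turned to -0.54 under scaling to the median of all probes.

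Nuclear genes of oxidative phosphorylation gave 12 higher and 33 lower of 82 with signal. Held were 1 rise and 26 falls (1.22% and 31.7%, beside 1.52% and 12.8% of all genes). Ndufb10, of complex I, read 8.13, 8.39 and 9.10 on the treated arrays, against 10.52, 10.67 and 10.83 on the controls on its brighter probe, a difference of -2.18. Its other probe was not well above background on any treated array, and the gene was scaling-dependent. Ndufb11 was scaling-dependent too, at -1.18 on its brighter probe, and its other probe was not well above background on treated arrays. Sdhd and Sdhb, subunits of succinate dehydrogenase, which serves both the respiratory chain and the tricarboxylic acid cycle, were held falls. Sdhd read 7.58, 8.25 and 8.75 on the treated arrays, against 10.18, 10.16 and 10.39 on the controls, and Sdhb differed by -1.13 and -1.45 on 2 probes. The median difference of the list was -0.18, beside 0.02 for all genes.

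The tricarboxylic acid cycle had the highest share of held falls among the nuclear lists. Of 22 genes with signal 1 was separated higher and 11 lower, and all 11 falls held (50%, beside 12.8%), with a median difference of -0.70. Over the 17 with signal on all 9 arrays, 9 falls held (52.9%, beside 15.3%). Mdh2, mitochondrial malate dehydrogenase, read 9.16, 10.18 and 10.87 on the treated arrays, against 12.43, 12.37 and 12.54 on the controls, a 5.22-fold fall. Cs, citrate synthase, read 10.18, 10.97 and 11.23 on the treated arrays, against 12.35, 12.50 and 12.33 on the controls, and Mdh1, the cytosolic malate dehydrogenase, read 7.43, 8.39 and 8.88 on the treated arrays, against 9.97, 9.83 and 9.96 on the controls. Both were named after their values were seen, and no treated array of either reached a control. Fh1, fumarase, had 2 held probes at -0.83 and -1.75. The exception was Idh1, the cytosolic isocitrate dehydrogenase, at 1.57 and scaling-dependent. Aifm1, a mitochondrial flavoprotein needed for complex I and released in cell death, had 2 held probes at -1.44 and -0.64.

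**Figure D4:**
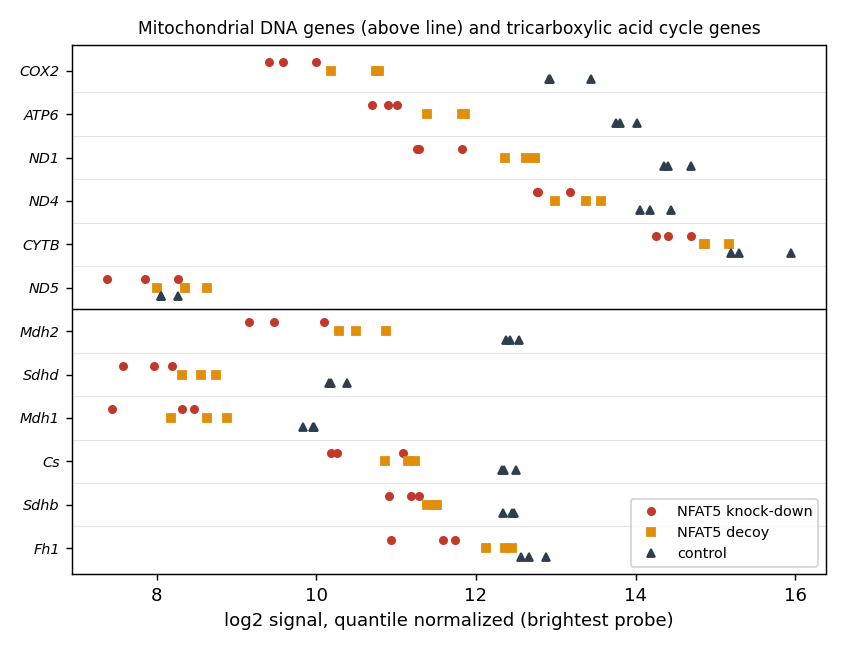
Log2 signal (x axis, quantile normalized, brightest probe) on each array for 6 genes of the mitochondrial genome, above the line, and 6 genes of the tricarboxylic acid cycle, below it, with knock-down as circles, decoy as squares and control as triangles. Apart from ND5, every treated point lies left of the controls, and the knock-down arrays of COX2, ATP6, ND1 and Mdh2 lie left of the decoy arrays.

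Glycolysis had 4 higher and 8 lower of 22 (18.2% and 36.4%, beside 17.7% and 22.7% of all genes). With all 3 scalings 0 were higher and 5 lower (22.7% held falls, beside 12.8%). Aldoa, aldolase A, read 11.89, 12.57 and 13.20 on the treated arrays, against 14.45, 14.60 and 14.56 on the controls, a held 3.94-fold fall. Eno1b, an enolase gene, read 7.08, 8.62 and 8.98 on the treated arrays, against 10.88, 10.86 and 10.71 on the controls, a held fall with 1 knock-down array far below the others. It is a near copy of Eno1, so signal of the 2 genes on its probe cannot be told apart. Pgam1 had 2 held probes at -0.51 and -1.20. Pfkp, the platelet isoform of phosphofructokinase, was higher on 2 probes, at 1.39 and 0.82, and scaling-dependent.

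Of 21 genes of the NRF2 list 2 were separated higher and 7 lower. No rise held, and 6 falls did (28.6%, beside 12.8% of all genes). Ftl1, ferritin light chain, was at the scanner's limit in all controls and at least 3.13-fold lower in treated cells. Cat, catalase, read 10.20, 10.67 and 10.94 on the treated arrays, against 11.58, 11.66 and 11.49 on the controls, a held difference of -0.95 (SE 0.152, adjusted p = 0.000174). Iron and haem genes had 2 higher and 4 lower of 20, with 0 held rises and 3 held falls (15%). Prdx1, peroxiredoxin 1, differed by -0.94 on its brighter probe, and the other was not well above background on treated arrays. It was scaling-dependent. Nfe2l2, which encodes NRF2 itself, was higher, at 8.03, 8.78 and 9.38 on the treated arrays, against 7.54, 7.23 and 7.29 on the controls, but scaling-dependent. Tfrc, the transferrin receptor, whose mRNA is stabilised when iron is low, was scaling-dependent and higher on both probes, at 1.01 and 0.56, while Ftl1 was a held fall.

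Of 55 cytosolic ribosomal protein genes with signal 6 were higher and 26 lower (47.3%, beside 22.7%), with 0 held rises and 18 held falls (32.7%, beside 12.8%). Their median difference was -0.35, but 0.00 under scaling to the median of probes with signal. Rpl27a had 3 held probes. Its 2 brightest were at the scanner's limit in the controls and at least 2.05-fold and at least 1.81-fold lower, and the third read 10.12, 10.26 and 10.48 on the treated arrays, against 11.33, 11.05 and 11.26 on the controls. Rps3a1 was a held fall at 9.71, 10.01 and 10.80 on the treated arrays, against 11.69, 11.47 and 11.83 on the controls. Rps24 and Rps12, at the limit in the controls on their brightest probes, were at least 1.48-fold and at least 1.4-fold lower with quantile normalization, and Rps12 turned to 0.34 under scaling to the median of probes with signal. Many ribosomal protein genes have processed pseudogenes, which their probes could also read.

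Translation factors were near the shares of all genes, with 9 higher and 12 lower of 51 (17.6% and 23.5%, beside 17.7% and 22.7%). Under all 3 scalings 1 was higher and 8 lower (1.96% and 15.7%, beside 1.52% and 12.8%). Eif3k, of the initiation complex eIF3, was a held fall at 9.11, 9.81 and 10.63 on the treated arrays, against 11.32, 11.65 and 11.85 on the controls. Eif2s2, the beta subunit of eIF2, had 2 held probes at -0.72 and -0.65. Eef2 (scaling-dependent) and Eif2ak2 (held), given above, were among the rises. Among 20 aminoacyl-tRNA synthetase genes 2 were higher and 5 lower (10% and 25%), with 1 held rise and 3 held falls (5% and 15%). Iars, for isoleucine, differed by -0.63 and -1.52 and held, and Tars, for threonine, by -1.64 on its brighter probe, scaling-dependent. The other Tars probe was not well above background on treated arrays.

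Atf4, the transcription factor that induces amino acid synthesis and many synthetase genes under stress, read 10.61, 11.38 and 11.79 on the treated arrays, against 13.55, 13.21 and 13.45 on the controls on its brighter probe. Its 2 probes differed by -2.08 (SE 0.216, adjusted p = 4.07e-06) and -0.75 (SE 0.169, adjusted p = 0.00243), and both held. The ATF4 and unfolded protein response list had 3 higher and 8 lower of 29 (10.3% and 27.6%, beside 17.7% and 22.7% of all genes). No rise held, and 5 falls did (17.2%, beside 12.8%). Hsp90b1, the chaperone GRP94, which folds Toll-like receptors and integrins, was a held fall at 12.36, 12.84 and 13.37 on the treated arrays, against 14.42, 14.43 and 14.31 on the controls. Herpud1, a degradation factor of the endoplasmic reticulum, differed by -0.55 and -0.62, scaling-dependent. Heat shock and chaperonin genes gave 3 higher and 8 lower of 28 (10.7% and 28.6%), with 0 held rises and 7 held falls (25%). Cct8, a subunit of the chaperonin that folds actin and tubulin, differed by -1.33, and Hspa4, an exchange factor for HSP70, by -1.40, both held.

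The proteasome list had 13 higher and 10 lower of 42 (31% and 23.8%, beside 17.7% and 22.7% of all genes). The rises were all scaling-dependent, with 0 held, and 6 falls held (14.3%, beside 12.8%). Psma7, of the 20S core, was higher on 2 probes, at 1.16 and 0.79, both scaling-dependent. Psmd14, the deubiquitinase of the lid, had 2 held falls at -1 and -1.57. Psmd11, also of the lid, differed by -1.96 and -0.44, scaling-dependent.

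RNA-processing genes moved in both directions. RNA helicases had 8 higher and 10 lower of 38, and 4 higher and 4 lower under all 3 scalings (10.5% each, beside 1.52% and 12.8%). The held rises were Ddx5, Ddx10, Dhx58 and Ddx58, of which the last pair are also interferon-stimulated genes. Ddx3x, an X-linked helicase in translation and antiviral signalling, was lower on 2 probes, at -1.10 and -0.68, and scaling-dependent. Splicing proteins gave 14 higher and 19 lower of 102 (13.7% and 18.6%, beside 17.7% and 22.7% of all genes). Held were 2 rises and 14 falls (1.96% and 13.7%), near the shares of all genes. Hnrnph1 was higher on 5 agreeing probes, between 0.83 and 1.69, but the brightest turned to -0.16 under scaling to the median of all probes. Rbm8a, of the exon junction complex, had 2 held falls at -0.71 and -1.13. Prpf4, of the U4/U6 snRNP, was scaling-dependent at 1.27 and 0.53.

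The m6A machinery, which marks and reads a methyl group on adenosines of mRNA, had 2 of 11 genes higher and 5 lower. There was 1 held rise, Zc3h13, and 3 falls held (9.09% and 27.3%, beside 1.52% and 12.8% of all genes). Alkbh5, a demethylase that removes the mark, read 7.03, 7.64 and 8.21 on the treated arrays, against 8.65, 8.65 and 8.89 on the controls. Ythdc1, its nuclear reader, read 9.59, 9.83 and 10.24 on the treated arrays, against 10.52, 10.47 and 10.69 on the controls. Zc3h13 was higher, and Alkbh5 and Ythdc1 lower, on every treated array, on 1 probe each, and the other members are not shown. Zc3h13 was above background in 1 group only. Over the 6 members with signal on all 9 arrays, 0 rises and 2 falls held (33.3%, beside 15.3% of all such genes). Nuclear pore and transport genes had 8 higher and 14 lower of 37, and all 14 falls held (37.8%, beside 12.8%). The falls included the importins Ipo9 and Kpnb1, at -1.64 and -1.01, the exportin Xpo5, at -1.27, and the GTPase Ran, at -1.31, which gives transport its direction. Nup54, of the central channel, was the held rise, at 1.11. The rises included Nup37, of the pore's outer ring, at 1.35, and Rangap1, which activates the GTPase of Ran, with 3 probes and 0.40 on the brightest, both scaling-dependent. Kpnb1, Xpo5 and Nup54 were named after their values were seen, and apart from Rangap1 each named member had 1 probe with signal. Over the 33 members with signal on all 9 arrays, 12 falls held (36.4%, beside 15.3%).

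Chromatin remodelling genes gave 3 higher and 14 lower of 37. Held were 2 rises and 11 falls (5.41% and 29.7%, beside 1.52% and 12.8% of all genes). The held rises include the annotated pseudogene Smarca5-ps, given above, whose probe was not tested for signal of Smarca5. Arid3a, a DNA-binding protein, read 7.90, 8.35 and 8.50 on the treated arrays, against 10.02, 10.18 and 10.12 on the controls, a held difference of -1.86 (SE 0.154, adjusted p = 5.82e-07). Brd8, of the NuA4 complex, was separated lower on 2 probes that were not well above background on any treated array (at least 1.05-fold on the brighter), and was scaling-dependent. Polycomb and histone modifier genes had 3 higher and 6 lower of 31 (9.68% and 19.4%, beside 17.7% and 22.7% of all genes). No rise held, and 5 falls did (16.1%). Eed, a core subunit of PRC2, was a held fall at 8.40, 9.20 and 9.53 on the treated arrays, against 10.69, 10.45 and 10.80 on the controls. Bmi1, of PRC1, was higher but scaling-dependent, at 9.04, 9.31 and 10.19 on the treated arrays, against 7.92, 7.56 and 7.91 on the controls. Nsd2, a histone H3 lysine 36 methyltransferase, was lower on 4 agreeing probes, between -1.33 and -0.30, and scaling-dependent.

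The structural maintenance of chromosomes did not move as 1 group. Of 25 genes 3 were higher and 6 lower (12% and 24%, beside 17.7% and 22.7% of all genes). Held were 1 rise and 5 falls (4% and 20%, beside 1.52% and 12.8%). Smc2, the core of both condensins, was below background in the controls and at least 3.79-fold higher in treated cells, at 8.66, 9.05 and 9.33 on the treated arrays, against 6.93, 6.87 and 6.80 on the controls. Its condensin I partner Ncapd2 was lower on 3 probes, as given above. The third partner, Smc4, named after its values were seen, had 3 probes with no common direction, at 1.13 on the brightest, and the others were not well above background on any treated array. Within the complex, the measured subunits thus pointed to both sides, and Smc2 rested on 1 probe.

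DNA replication genes had 6 higher and 13 lower of 50, with 0 held rises and 5 held falls (10%, beside 12.8%). Rrm1, the large subunit of ribonucleotide reductase, was a held fall on 2 probes, of very different extent, at -0.59 and -2.61. Rfc4, of the clamp loader, differed by -2.22 and -0.53, scaling-dependent. Mcm7, of the replicative helicase, could not be placed. Its brighter probe read 8.30, 9.02 and 9.29 on the treated arrays, against 11.79, 11.64 and 11.58 on the controls, and the other 9.09, 9.26 and 10.49 on the treated arrays, against 7.73, 7.57 and 7.48 on the controls, which is 6.67-fold down and 3.98-fold up. Of 90 genes of cyclins, CDKs and mitosis 9 were higher and 13 lower (10% and 14.4%, beside 17.7% and 22.7% of all genes). Held were 1 rise and 9 falls (1.11% and 10%, beside 1.52% and 12.8%). Bub1b, of the spindle checkpoint, was a held fall at -1.39 and -0.68. Ccnd2, cyclin D2, was scaling-dependent and higher at 1.80 and 0.57. Birc5, survivin, was higher on 3 probes, at 0.64, 0.35 and 0.98, and its brightest probe turned to -0.33 under scaling to the median of all probes.

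Genes of cell death and survival held 1 of the largest falls of the study. Bcl2a1b and Bcl2a1d, copies of the gene of A1, an NF-kB-induced protein that protects macrophages from apoptosis, were both held falls. Bcl2a1b read 9.07, 9.5 and 9.70 on the treated arrays, against 12.59, 12.57 and 12.52 on the controls, 8.62-fold lower. Bcl2a1d read 9.79, 10.02 and 10.52 on the treated arrays, against 12.70, 12.57 and 12.66 on the controls on its brighter probe and differed by -2.57 and -1.12. The copies are nearly identical, so which of them fell cannot be told apart on this array. Of 14 anti-apoptotic genes 3 were higher and 5 lower, and all 5 falls held (35.7%, beside 12.8% of all genes). These 5 count Bcl2a1b and Bcl2a1d apart and include Naip2, given above as a sensor of bacterial proteins. Of 24 pro-apoptotic genes 4 were higher and 3 lower (16.7% and 12.5%, beside 17.7% and 22.7% of all genes). No rise held, and the 3 falls did (12.5%), near the share of all genes. The necroptosis genes went apart, since Mlkl, the pore former, was scaling-dependent and higher at 1.69, and Ripk3, its kinase, was a held fall at -1.07. Targets of p53 had 7 of 24 higher and 2 lower (29.2% and 8.33%, beside 17.7% and 22.7% of all genes). None of the rises held, which says little for a list of 24, since held rises were 1.52% of all genes. Mdm2, the ligase of p53, differed by 1.09 and 0.55, and the death receptor Fas by 1.01 and 0.88. Both were scaling-dependent, and for Fas the brighter probe turned to -0.02 under scaling to the median of all probes. Cdkn1a, p21, named after its values were seen, had probes at 0.93, -1.33 and 0.89.

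The cells expressed genes that define macrophages, and these did not all move together. Of 22 macrophage genes with signal 3 were higher and 7 lower. No rise held, and 5 falls did (22.7%, beside 12.8% of all genes). Tyrobp, the adaptor DAP12 of activating receptors, read 9.69, 10.82 and 11.35 on the treated arrays, against 12.77, 12.84 and 12.55 on the controls, a held difference of -2.09 (SE 0.297, adjusted p = 6.31e-05). Irf8 and Ctss, given above, were held falls as well. Adgre1, an adhesion receptor used as a macrophage marker, was lower on 2 probes, at -0.63 and -0.67, and scaling-dependent. Spi1, which encodes PU.1, and Csf1r, the receptor of the growth factor CSF1, were not counted. The highest treated array of Spi1 met its lowest control (9.62, 9.72 and 10.65 on the treated arrays, against 10.70, 10.79 and 10.65 on the controls), and the 2 Csf1r probes were at -1.17 and -0.21. Cd14 was at 0.30 (adjusted p = 0.151). Spi1, Csf1r and Cd14 were named after their values were seen.

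Markers of other cell types were nearly all below background. Of 11 fibroblast, 12 T and NK cell, 5 B cell, 13 neutrophil and mast cell, 9 dendritic cell and 11 epithelial and endothelial genes on the array, 1, 1, 0, 1, 1 and 1 had signal. S100a8, of neutrophils and activated macrophages, was a held rise at 9.01, 9.10 and 9.35 on the treated arrays, against 7.44, 7.62 and 7.54 on the controls. Acta2, smooth-muscle actin, was higher at 8.51, 9.18 and 10.17 on the treated arrays, against 8.01, 7.99 and 8.01 on the controls, and Krt8, keratin 8, was separated lower but not well above background on any treated array. Both were scaling-dependent, with Krt8 turning to 0.28 under scaling to the median of probes with signal.

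Genes of the actin cytoskeleton gave 9 higher and 17 lower of 47. Held were 1 rise and 13 falls (2.13% and 27.7%, beside 1.52% and 12.8% of all genes). Pfn1, profilin, which feeds actin to growing filaments, was a held fall on 2 probes, at -0.49 and -1.22. Gsn, gelsolin, which severs filaments, was below background in the controls and at least 4.57-fold higher, the held rise of the list, named after its values were seen. Arpc5, of the ARP2/3 complex, and Tmsb10, a thymosin, were higher on 2 and 3 probes, at 0.70 and 0.67 on the brightest, which turned to -0.31 and -0.35 under scaling to the median of all probes. Integrin and matrix genes had 6 higher and 13 lower of 32 (18.8% and 40.6%, beside 17.7% and 22.7% of all genes). No rise held, and 4 falls did (12.5%, near the share of all genes). Itgb5, integrin beta 5, read 9.02, 9.59 and 10.27 on the treated arrays, against 11.41, 11.31 and 11.39 on the controls, and Lgals1, galectin 1, read 12.49, 13.23 and 13.60 on the treated arrays, against 14.29, 14.53 and 14.42 on the controls. Both were held falls. Lysosomal genes had 11 higher and 16 lower of 56, with 0 held rises and 11 held falls (19.6%). Ctsz, cathepsin Z, had 2 held probes at -0.98 and -1.02, and Lipa, lysosomal acid lipase, had 2 at -0.93 and -1.49. Of 26 osteoclast genes, a fate open to this line, 7 were higher and 8 lower (26.9% and 30.8%). No rise held, and 6 falls did (23.1%).

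**Figure D5:**
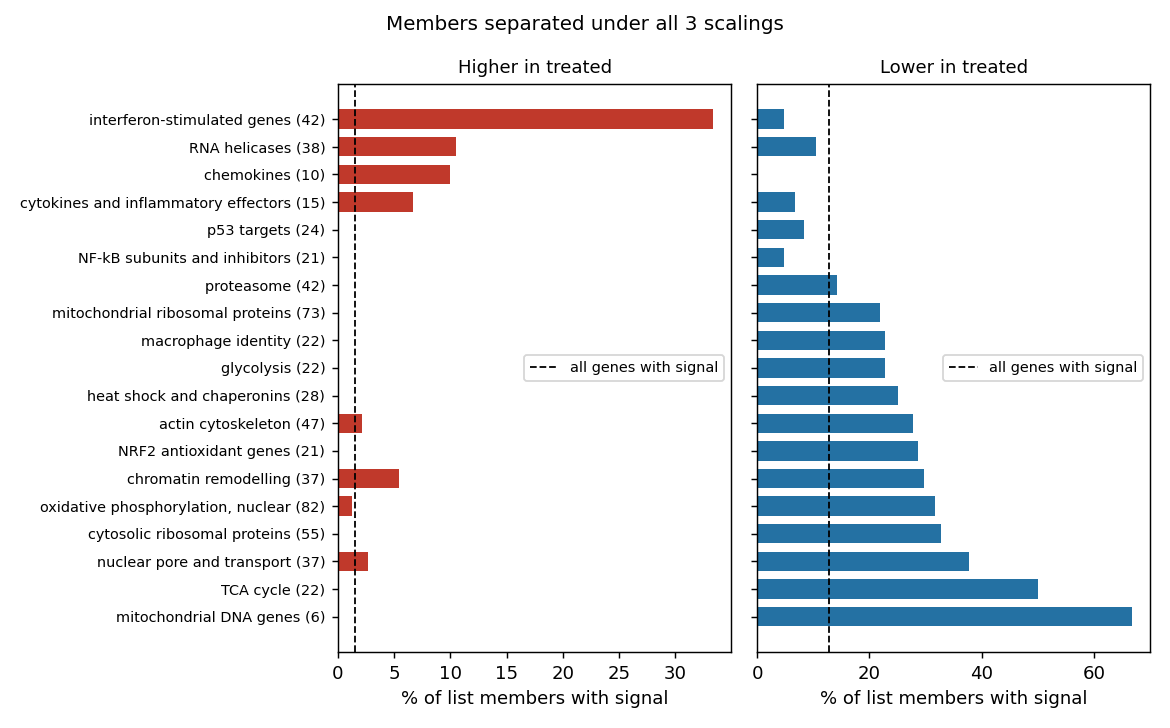
Share of members with signal (x axis, percent) that were separated higher, left, or lower, right, in treated cells under all 3 scalings, for selected lists. The number of members with signal is in brackets, and the share of all genes with signal is a dashed line (1.52% higher and 12.8% lower). Other lists, such as the anti-apoptotic genes and the osmoprotective NFAT5 targets, are not drawn. Interferon-stimulated genes reach 33.3% among rises, and mitochondrial DNA and tricarboxylic acid cycle genes reach 66.7% and 50% among falls.

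The remaining lists had no held share of rises above 5%, beside 1.52% of all genes, and several had fewer held falls than the 12.8% of all genes. Their counts with quantile normalization stand beside 17.7% of all genes higher and 22.7% lower. The zinc finger list, at 18.2% and 22.2%, and the ubiquitin list, at 19.2% and 20.9%, were near these. Genes of the MAP kinase pathways, which carry receptor signals to the nucleus, had 7 higher and 4 lower of 33 with signal, of which 0 and 1 held. Protein tyrosine phosphatases had 3 higher and 3 lower of 26 with signal, of which 0 and 1 held. Genes of PI3K, AKT and mTOR, which couple growth signals to metabolism, had 5 higher and 6 lower of 25 with signal, of which 1 and 2 held. Zinc finger genes had 37 higher and 45 lower of 203 with signal, of which 3 and 15 held. Small GTPases and their regulators had 19 higher and 19 lower of 102 with signal, of which 4 and 11 held. Ubiquitin ligases and proteases had 35 higher and 38 lower of 182 with signal, of which 2 and 19 held. With signal required on all 9 arrays, the zinc finger list had 37 higher and 12 lower of 109, with quantile normalization. The small GTPase list then had 20 and 12 of 71, and the ubiquitin list 39 and 15 of 131. Over all genes with signal on all 9 arrays, 27.9% were higher and 17.2% lower. Solute transporters had 26 higher and 24 lower of 143 with signal, of which 5 and 10 held. Of their 5 held rises, 4 were above background in 1 group only. Sterol and lipid synthesis genes had 5 higher and 9 lower of 34 with signal, of which 0 and 6 held. DNA repair genes had 4 higher and 7 lower of 31 with signal, of which 0 and 5 held.

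The pooled design takes both lines as 1 group, and the lines were compared with each other in the model with 3 group means. Of 27062 probes 726 were called (2.68%), with 287 higher and 439 lower in knock-down than in decoy cells. Among the 3401 separated genes 147 were called (4.32%), and among the other 5027 with signal 239 (4.75%). The knock-down cells lay further from control in 1126 of the 1492 rises and 1455 of the 1909 falls. The median differences from control were 0.785 in knock-down and 0.603 in decoy cells for the rises, and -0.820 and -0.654 for the falls.

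Scn11a and Rcsd1 differed most between the lines. Scn11a read 8.66, 8.73 and 9.18 in knock-down, 11.41, 11.56 and 10.95 in decoy and 7.32, 7.28 and 7.28 in control cells (knock-down minus decoy, adjusted p = 1.71e-06). Rcsd1, a regulator of actin capping, read 8.07, 7.88 and 7.58 in knock-down, 10.17, 9.91 and 9.94 in decoy and 10.60, 10.65 and 10.66 in control cells (adjusted p = 1.41e-06). Scn11a was thus high in both lines and most in decoy cells, and Rcsd1 was low in both and most in knock-down cells. Plpp3, a lipid phosphatase, differed from control by 0.56 in knock-down and 2.25 in decoy cells, and Adcy6, an adenylyl cyclase, by 0.44 and 1.62. Both were scaling-dependent and below background in control cells, so the pooled rises are given as at least 2.16-fold and at least 1.79-fold. Cd52 differed from control by -1.97 in knock-down and -0.81 in decoy cells, and Glipr1, which is related to pathogenesis proteins of plants, by -1.84 and -0.71. The mitochondrial transcripts followed the same order, with ND1 at -3.03 and -1.91 and COX2 at -3.43 and -2.52. By contrast Usp18 was at 2.22 and 2.36 and Rsad2 at 1.91 and 2.12, differences between the lines that were not called.

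The treated arrays were also not alike within a line. Among the 1492 rises, the highest pair of treated arrays was knock-down replicates 2 and 3 in 474 genes (31.8%). It was knock-down replicates 1 and 3 in 250 (16.8%), knock-down replicate 3 with decoy replicate 2 in 160 (10.7%), and knock-down replicate 2 with decoy replicate 3 in 133 (8.91%). Eef2 and Ddx5 belong to the last kind. Knock-down replicate 3 had the lowest upper quartile of raw signal of all arrays, at 209 units. The part of these arrays in single-gene differences was not tested beyond leaving each out in turn.

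Finally, some large changes could not be assigned a direction because the probes of a gene were opposed. Ahcyl1, a regulator of calcium channels of the endoplasmic reticulum, read 11.65, 12.06 and 12.37 on the treated arrays, against 10.53, 10.23 and 10.63 on the controls on 1 probe and 8.81, 9.36 and 9.91 on the treated arrays, against 11.35, 11.30 and 11.20 on the controls on the other. Trpc4ap, an adaptor of a ubiquitin ligase, had probes at 1.67, -1.48 and 0.02. With Mcm7 and Irgm1, these genes had separations as wide as those of the named rises and falls, on probes that carry the same symbol.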

How the data were processed

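Samples were grouped by title and source name (6 treated, 3 control). The authors deposited raw intensity values per probe as whole numbers, and a table of log2 values that the authors processed, with ranks like those of the raw values (lowest rank correlation 0.99995). Per the submitters' processing notes, R 2.9.1 was among the authors' tools. How the authors normalized is not stated in the sources used here. From the raw table, 2042 blank rows were dropped, leaving 45281 probes.

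Here intensities were background-corrected with normexp (offset 50), log2-transformed and quantile-normalized in limma 3.58.1 (R 4.3.3). Of the probes, 27062 exceeded their array's median on at least 3 arrays and were fitted with lmFit and eBayes (two-sided, Benjamini-Hochberg adjustment, threshold 0.05). Background was the mode of log2 raw signal plus 3 SD of its lower side, and 14883 probes had signal, 12820 of them with 1 gene symbol from the platform annotation. The symbol was single for 34885 of all probes, several for 18 and missing for 10378. Saturation was set at 60000 raw units. "At least" folds set the brighter mean against the background limit, or understate a saturated one. The number of arrays limits the precision.

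Named genes were taken from Nfat5, the 12 largest rises and falls on several agreeing probes, the 6 largest on 1 probe, up to 4 members of each list, 6 genes that differ between lines and 4 with opposed probes. Others are marked in the text. The members and lists were chosen with earlier results of these data known. Alternatives were other normalizations, the authors' values, probe filters, group models, blocks, array weights and each array left out. Scaling to the median of probes with signal, and all 3 scalings over probes above background on all 9 arrays, were added after seeing the data. The code of the fit was run on simulated data with known changes, and no result above rests on that run.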

Additional observations from a re-analysis of the deposited data

Results flagged for a closer look

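In 10 of 144 genes (6.94%), 1 treated array stood apart from the other 5 by Dixon's criterion, which chance meets in about 1 in 20 groups. The 144 are a part of the genes named above, each taken on its brightest probe. The value is the gap to the nearest array over the range of the 6. Knock-down replicate 3 stood apart for Gatc (0.753, at 13.00 beside a next value of 12.41), Ric8b (0.691, at 6.39 beside 7.58), Naip5 (0.637), Mrps31 (0.662), Eno1b (0.672) and S100a8 (0.701). Knock-down replicate 1 stood apart for Dtd1 (0.91) and knock-down replicate 2 for Prpf4 (0.636). Decoy replicate 1 stood apart for Rps3a1 (0.662) and decoy replicate 3 for Ctsz (0.635).

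In 25 of the 144 genes the 2 treated lines differed from each other (limma, adjusted p, knock-down minus decoy in log2). The adjusted p follows each difference in brackets. Of the 25, the transcripts of the mitochondrial genome and the enzymes of central metabolism were lower in knock-down than in decoy cells, with COX2 at -0.91 (0.028), ATP6 at -0.82 (0.0129), ND1 at -1.12 (0.00284), Mdh2 at -0.98 (0.0213), Fh1 at -0.89 (0.0213) and Aldoa at -0.75 (0.0249). Genes of stress, protein quality and translation were lower too, with Prdx1 at -0.79 (0.00961), Ftl1 at -0.90 (0.00437), Hsp90b1 at -0.74 (0.0113), Hspa4 at -0.66 (0.0141), Psmd11 at -0.67 (0.0432) and Eif3k at -0.87 (0.0347). Among genes of the immune system and surface, Cd52 was at -1.16 (0.000361), Il1rn at -1.09 (0.00102), Pdgfa at -1.13 (0.00171), Ctss at -0.73 (0.0135) and Glipr1 at -1.13 (0.00284). Higher in knock-down than in decoy cells were Zc3h13 at 0.69 (0.037) and Fas at 1.01 (0.00324). The others were Nfat5 at -0.54 (0.0418), Smc5 at -0.64 (0.031), Scn11a at -2.45 (1.71e-06), Rcsd1 at -2.16 (1.41e-06), Plpp3 at -1.69 (0.00103) and Adcy6 at -1.19 (0.00102).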

How the results depend on the processing

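Scaling decided the counts. The called probes of the pooled comparison were 5559 higher and 6043 lower, against 2703 and 13594 when arrays were scaled to a common median and 17597 and 2901 when they were scaled to the median of probes with signal, an alternative added after seeing the data. Genes separated on several agreeing probes were 197 higher and 250 lower, against 5 and 1519 under the common median, 420 and 118 under the median of probes with signal, and 427 and 397 with looser agreement of probes. With signal required on all 9 arrays they were 223 and 98. Genes separated on 1 probe were 1295 higher and 1659 lower, against 124 and 3891 under the common median, 982 lower under the median of probes with signal, and 1461 and 942 with signal on all 9 arrays, and 540 of the 1659 falls were above background in 1 group only. Probes called between knock-down and decoy were 726, against 49 under the common median and 210 with the treated arrays fitted alone.

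Leaving out 1 array gave 3744 (without control replicate 1) to 5683 probes higher and 4402 to 6146 lower, 208 to 232 and 259 to 281 genes on several probes, and 1328 to 1436 and 1710 to 1749 on 1 probe. For knock-down against decoy it gave 237 (without decoy replicate 1) to 1921 (without knock-down replicate 1), with 326 without decoy replicate 2, 357 without knock-down replicate 3 and 400, 402 and 406 without control replicates 1, 2 and 3. With the replicate number as a block, 5122 probes were higher, 5697 lower and 618 called between the lines. Same-numbered knock-down and decoy arrays correlated at 0.283, -0.222 and -0.112, and differently numbered ones at -0.295 to 0.391. With 3 arrays in a group these values cannot say whether the numbers pair the samples. The other alternatives kept each count within 1.5 times.

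The settings were compared for 144 of the named genes, each on its brightest probe, and the other named genes were not included. Of the 144, 107 kept their direction and their side of the threshold in every setting, and 16 reversed in 1. Under the common median these were Irf9 (-0.24), Vegfa (-0.36), Tnfsf13b (-0.49), Tlr4 (-0.53), Tab2 (-0.24), Naip5 (-0.06), Tapbp (-0.01), Rcan1 (-0.60), Birc5 (-0.33), Mrps31 (-0.54), Hnrnph1 (-0.16), Fas (-0.02), Arpc5 (-0.31) and Tmsb10 (-0.35), and under the median of probes with signal Rps12 (0.34) and Krt8 (0.28). The cause was not tested. Signal near background limits rises and falls, and saturation limits folds of the brightest genes.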
